A study of Mus musculus with 2 samples.

Results

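The 37 genes described here encode transcription factors that mark regions of the developing and adult forebrain, and they were taken by symbol from a fixed list of names. All 37 were found once in the gene table of both libraries, out of 55357 genes in each. They were read in nuclei of mouse hippocampus from 2 single-nucleus RNA libraries of mice whose Bcas2 gene is floxed (Bcas2F/F in the titles). Bcas2 encodes a component of a splicing complex. In 1 library the mice had received AAV2/9-Syn-cre, a virus carrying Cre recombinase under the neuronal synapsin promoter, and its genotype label reads Bcas2 knockdown. It is called the Syn-cre library after its treatment. The other library, from mice given AAV-vehicle, is the control, and its genotype label reads WT although its title names floxed mice. The sources used here do not give the age or number of the mice or which part of Bcas2 is floxed. Nuclei were released with a dounce, stained with propidium iodide and sorted before droplet capture. There is 1 library in each group, so no difference below has a replicate check, and every interval covers counting error only.

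Regional identity in the forebrain is laid down by homeodomain and zinc-finger transcription factors whose expression domains tile the early neural tube, and many neurons keep part of that code for life. Emx1, Emx2 and Lhx2 belong to the dorsal telencephalon, or pallium, from which hippocampus and cortex arise. Dlx genes mark the ganglionic eminences, the source of GABAergic neurons, where Nkx2-1 and then Lhx6 and Lhx8 mark the medial part. Zic genes are known for the septum, Isl1, Six3, Meis2 and Foxp1 for striatal lineages, Otx2 for choroid plexus and pineal gland, Tcf7l2, Lhx9 and Lhx1 for parts of the diencephalon, and Lhx1 and Lhx5 also for Cajal-Retzius neurons, which line the hippocampal fissure.

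A UMI (unique molecular identifier) marks 1 captured molecule. A level is given as CPM, the UMIs of a gene relative to all UMIs of the unit and library, scaled to the same total in each, with a 95% Poisson interval in parentheses. A unit is a cluster of nuclei or a class of clusters named from markers that did not include the 37 genes. The 37 genes were also kept out of the clustering, so their own counts did not go into the names. After filters, 12317 nuclei of the Syn-cre library (median 5792 UMIs) and 11162 of the control (median 2482 UMIs) fell into 35 clusters, of which 25 were named and 10 were not. Neuronal units held 8791 nuclei (71.4%) of the Syn-cre library and 1141 (10.2%) of the control, and 18 units were neuronal. The libraries shared 56 barcodes. Bcas2 stood at 33.6 CPM (30.6 to 36.9) and 34.4 CPM (29 to 40.5) in granule-like nuclei of the dentate gyrus (DG), in the Syn-cre library and control, so its level did not set the libraries apart. Where the deleted part lies relative to the counted reads is not known, so this does not check the labels. Fewer cells of a type and less RNA per cell cannot be told apart from counts summed over a library.

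RNA that leaks from broken cells is captured with every nucleus, and the level in glia is given beside neuronal levels for that reason. A glial level can also hold RNA of the glia themselves, so a neuronal level below it is not read as background. Foxp1 stood at 239.6 and 237 CPM in oligodendrocyte-like nuclei of the Syn-cre library and the control, Zfhx4 at 107 and 112 CPM and Cux1 at 78.2 and 87.3 CPM. The part of leaked RNA in these levels was not tested. Oligodendrocyte-like nuclei, glia that are not known for Dlx genes, held 11.4 CPM of Dlx1 in the Syn-cre library and 1.01 CPM in the control, and 13.9 and 2.81 CPM of Zic1. Markers of non-neuronal classes stood in DG granule-like nuclei at a median of 32.9% of their level over the whole Syn-cre library and at 13.3% in the control.

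Of the 37 genes, 33 reached 20 CPM with at least 30 UMIs in a unit of at least 30 nuclei of 1 library. Lhx8, Zic5, Emx1 and Nkx2-1 did not. Among such units, 23 of the 37 were highest in a neuronal unit and 14 outside neurons, by level alone and without regard to counting error. Meis1, for 1, was placed by 108 CPM in neuroblast-like against 104 CPM in oligodendrocyte-like nuclei. The levels of different genes are not compared, since the number of UMIs per gene depends on its length in nuclear RNA. Below, each gene is compared with itself across units. Dlx6os1, Otx2os1, Six3os1, Emx2os and Lhx1os are named as antisense to genes of the list and are counted as genes of their own. To which gene reads from an overlap went is uncertain, because the sources used here do not state the strand used for counting. These antisense genes were not kept out of the clustering, and whether they shaped the clusters was not tested.

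**Figure D1:**
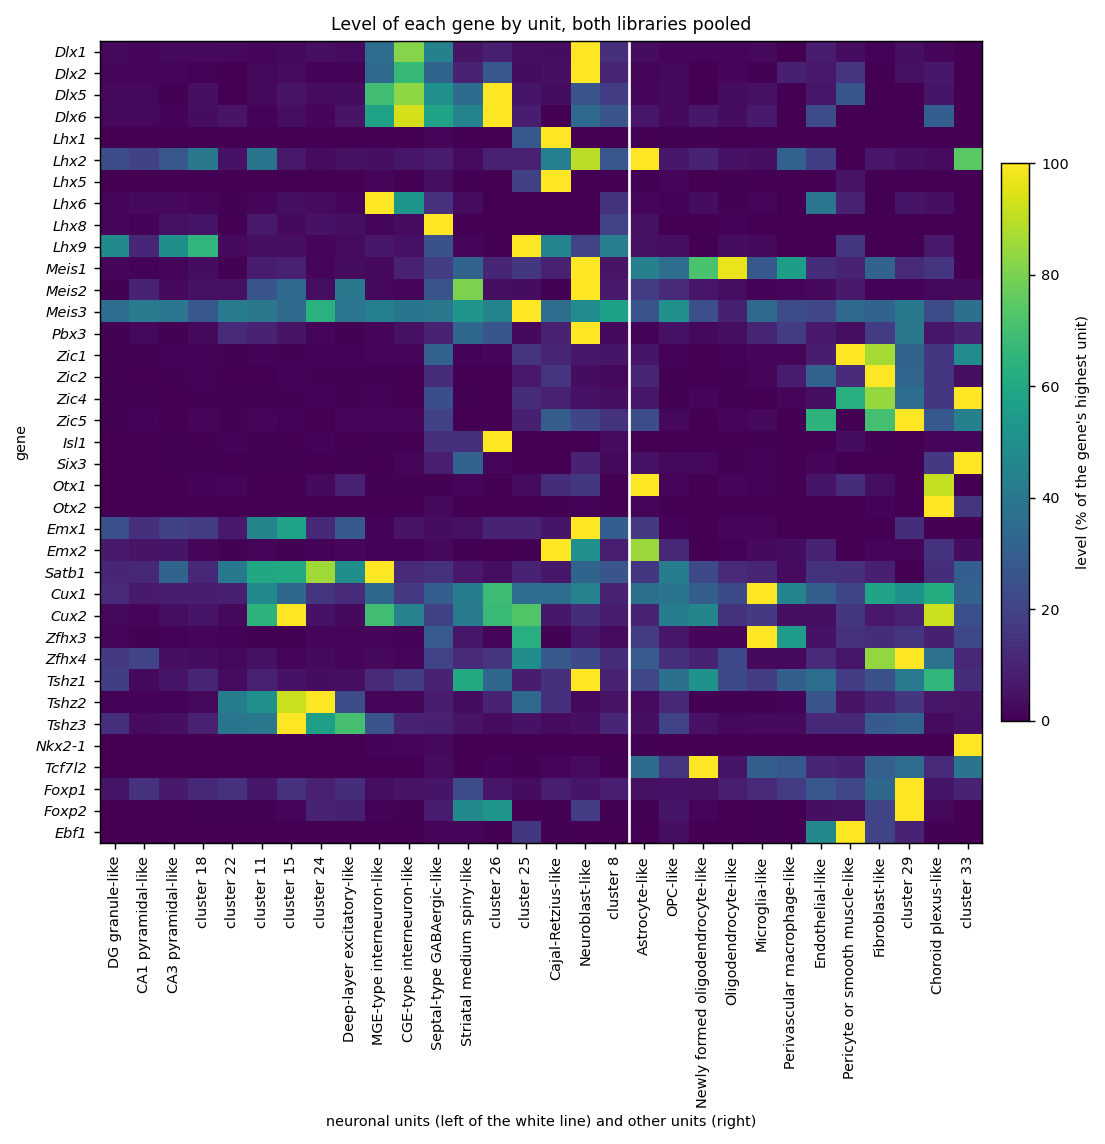
Level of each of the 37 genes in each unit (columns) as a percentage of the gene's highest unit, from UMIs summed over both libraries. Dlx1 and Dlx2 are bright in the interneuron-like and neuroblast-like columns, Zic1 and Zic4 in the septal-type column and outside neurons, and Isl1 in cluster 26. The pineal-like cluster, with under 30 nuclei in all, is left out.

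The excitatory neurons carried the pallial part of the code at low levels and were told apart by the teashirt genes, Satb1, Cux2 and Meis2. Emx1, a pallial homeodomain factor, stood at 6.39 CPM in the Syn-cre granule-like nuclei of the DG and 4.09 CPM in those of the control, and at 13.7 and 15.2 CPM in cluster 15, an unnamed neuronal cluster led by Vwc2l and Pdzrn3. In MGE-type interneuron-like nuclei (MGE, medial ganglionic eminence) of the Syn-cre library Emx1 stood at 0.217 CPM. Astrocyte-like nuclei held 3.22 and 4.70 CPM and oligodendrocyte-like nuclei 1.59 and 0.168 CPM, so the granule-like level of Emx1 lay within counting error of the astrocyte-like one in both libraries.

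Lhx2, which acts early in hippocampal development, stood at 17.4 CPM in Syn-cre and 17.1 CPM in control granule-like nuclei of the DG, at 31.0 CPM in cluster 18 and 30.4 CPM in cluster 11 of the Syn-cre library, and at 3.25 CPM in MGE-type interneuron-like nuclei. Lhx9 shared part of this pattern. It stood at 16.3 and 14.9 CPM in granule-like nuclei of the DG, at 16.8 CPM in CA3 pyramidal-like nuclei and at 21.6 CPM in cluster 18 of the Syn-cre library, against 3.71 CPM in CA1 pyramidal-like nuclei and 2.96 CPM in oligodendrocyte-like nuclei. The intervals of the CA1-like and oligodendrocyte-like levels overlapped (2.52 to 5.27 and 1.57 to 5.05 CPM), and those of DG granule-like (14.2 to 18.7), CA3-like (12.97 to 21.5) and cluster 18 nuclei (16.6 to 27.6) lay above both.

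Tshz2, a teashirt zinc-finger gene, separated the dentate gyrus and CA fields from several unnamed excitatory clusters. In the Syn-cre library it stood at 23.9 CPM in DG granule-like, 22.3 CPM in CA1-like and 24.7 CPM in CA3-like nuclei, each below the 34.8 CPM of oligodendrocyte-like nuclei. It stood at 1028 CPM in cluster 22, led by Ndst4, Stac and Fn1, at 1237 CPM (1211 to 1264) in cluster 11, at 2240 CPM (2189 to 2293) in cluster 15 and at 2467 CPM (2394 to 2542) in cluster 24, led by Vwc2l, Il1rapl2 and Hs3st4. The control held 32 nuclei of cluster 15, with 2448 CPM (2263 to 2644), and 36 of cluster 11, with 1149 CPM (1055 to 1249). The order of the 2 clusters was the same in both libraries.

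Tshz3 followed in cluster 15 with 241 CPM (224 to 258) and 235 CPM (180 to 302), and in deep-layer excitatory-like nuclei with 167 CPM in the Syn-cre library. It stood at 6.83 CPM in CA1-like nuclei there. Satb1, a chromatin organiser, was highest among neurons in MGE-type interneuron-like nuclei with 188 CPM (176 to 201), followed by cluster 24 with 163 CPM (145 to 183). CA3-like nuclei held 59.7 CPM and CA1-like nuclei 21.8 CPM, the latter below the 27.7 CPM of oligodendrocyte-like nuclei.

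Cux2, a marker of upper cortical layers, was at 301 CPM (283 to 321) in cluster 15 of the Syn-cre library and 292 CPM (231 to 365) in that of the control, and at 192 and 235 CPM in cluster 11. In DG granule-like, CA1-like and CA3-like nuclei it stood at 6.70, 5.75 and 11.1 CPM in the Syn-cre library, against 44.6 CPM in oligodendrocyte-like nuclei. Meis2, a TALE homeodomain factor of striatal and cortical lineages, reached 737 CPM (711 to 764) in deep-layer excitatory-like nuclei and 649 CPM (621 to 677) in cluster 15, against 17.1 CPM in granule-like nuclei of the DG. CA1-like nuclei held 189 CPM and CA3-like nuclei 49.7 CPM. Foxp2, a forkhead factor, stood at 162 CPM in cluster 24 and 149 CPM in deep-layer excitatory-like nuclei of the Syn-cre library. Foxp1, of the same family, stood at 399 CPM in CA1-like and 163 CPM in granule-like nuclei of the DG there, above and below the 239.6 CPM of oligodendrocyte-like nuclei. Zfhx4 held 105 CPM in CA1-like and 88.1 CPM in granule-like nuclei of the DG, against 21.3 CPM in CA3-like nuclei and 107 CPM in oligodendrocyte-like nuclei.

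From the list of 20 other pallial transcription factors, 15 reached 20 CPM in the Syn-cre granule-like nuclei of the DG and 14 in those of the control, among them Zbtb20, Nfib, Nfia and Mef2c. Of the 12 hindbrain and spinal factors, such as Hox genes, none did so in those nuclei in either library.

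The Dlx genes, homeodomain factors of GABAergic lineages, had their highest neuronal levels in the MGE-type, CGE-type and septal-type GABAergic units, in cluster 26 and in neuroblast-like nuclei. Dlx1 stood at 129 CPM (117 to 143) in CGE-type interneuron-like nuclei (CGE, caudal ganglionic eminence) of the Syn-cre library, at 69.0 CPM (64 to 74) in the septal-type GABAergic-like cluster and at 56.1 CPM in MGE-type interneuron-like nuclei. The control held 71.2 CPM (53 to 93) in its 68 septal-type nuclei. Dlx2 stood in the Syn-cre library at 48.4 CPM in CGE-type, 23.4 CPM in MGE-type and 23.1 CPM in septal-type nuclei, and the intervals of the last 2 units overlapped. In cluster 26 of the Syn-cre library Dlx5 and Dlx6 stood at 46.2 CPM (22 to 85) and 36.9 CPM (16 to 73), whose intervals overlapped those of CGE-type nuclei at 33.4 CPM (27 to 41) and 28.2 CPM (22 to 35). Striatal medium spiny-like nuclei, which are GABAergic as well, held 9.37 CPM of Dlx1, below the 11.4 CPM of oligodendrocyte-like nuclei.

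Across 18 neuronal clusters, on log2(CPM + 5) and from both libraries pooled, the levels of Dlx1 and Dlx2 had a Pearson r of 0.96 and those of Dlx5 and Dlx6 of 0.98, while Dlx1 and Dlx5 had 0.77. Zic1 and Zic4 had an r of 0.97 and Zic1 and Zic2 of 0.93. Lhx1 and Lhx5 had an r of 0.98. These values are descriptions over clusters that share libraries and depth. Both Dlx1 with Dlx2 and Zic1 with Zic4 are neighbours on a chromosome. The first bases of Zic1 and Zic4 lie 3204 bases apart on chromosome 9 and point away from each other, and those of Dlx1 and Dlx2 lie 17309 bases apart on chromosome 2 and point towards each other (RefSeq, GRCm38.p6). The 250 bases before each start are shown for these 4 genes because they are neighbouring pairs whose levels over neuronal clusters had an r of 0.97 and 0.96 and for which RefSeq promoters of both genes were found. Capitals mark matches on either strand to TAATTA, known from homeodomain sites, to TGACAG, known from TALE sites, or to GGGCGG, the GC box. None of these matches overlap.
Zic1, chr9:91365769-91366018, minus strand: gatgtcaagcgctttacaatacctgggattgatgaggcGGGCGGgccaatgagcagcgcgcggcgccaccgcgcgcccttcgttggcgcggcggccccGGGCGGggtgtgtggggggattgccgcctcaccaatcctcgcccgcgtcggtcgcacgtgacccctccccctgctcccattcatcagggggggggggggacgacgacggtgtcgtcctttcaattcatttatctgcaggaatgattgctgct
Zic4, chr9:91368722-91368971, plus strand: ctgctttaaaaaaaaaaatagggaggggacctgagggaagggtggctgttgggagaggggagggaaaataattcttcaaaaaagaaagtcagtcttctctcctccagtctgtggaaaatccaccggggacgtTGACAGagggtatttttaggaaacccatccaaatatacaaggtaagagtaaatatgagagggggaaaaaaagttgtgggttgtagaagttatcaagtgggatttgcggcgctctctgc
Dlx1, chr2:71529195-71529444, plus strand: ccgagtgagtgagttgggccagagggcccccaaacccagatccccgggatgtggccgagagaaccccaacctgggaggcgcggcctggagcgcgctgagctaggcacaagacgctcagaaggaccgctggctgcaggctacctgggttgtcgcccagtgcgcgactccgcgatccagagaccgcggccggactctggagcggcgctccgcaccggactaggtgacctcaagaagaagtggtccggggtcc
Dlx2, chr2:71546755-71547004, minus strand: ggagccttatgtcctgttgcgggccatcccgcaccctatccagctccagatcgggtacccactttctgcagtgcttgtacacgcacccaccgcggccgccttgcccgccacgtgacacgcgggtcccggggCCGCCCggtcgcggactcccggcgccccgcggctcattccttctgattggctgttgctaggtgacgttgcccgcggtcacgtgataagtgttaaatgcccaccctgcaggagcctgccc

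The paired promoters differed in these letters. Zic1 held 2 GGGCGG matches and Zic4 held 1 TGACAG match and no GGGCGG, with a GC content of 66.0% against 44.4%. Dlx1 held no match to any of the 3 motifs and Dlx2 held 1 GGGCGG match, with GC contents of 68.0% and 66.4%. RefSeq promoters were found for 28 of the 37 genes. Dlx5, Dlx6, Lhx5, Pbx3, Zic2, Otx1, Zfhx4, Tshz1 and Foxp2 had no entry. GGGCGG was found before 11 of the 28 (39.3%) and 32.9% of 27025 promoters, TGACAG before 4 (14.3%) and 15.97%, and TAATTA before 1 (3.57%) and 4.90%.

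Lhx6, the LIM-homeodomain factor of medial ganglionic eminence interneurons, stood at 54.2 CPM (48 to 61) in MGE-type interneuron-like nuclei of the Syn-cre library, where 36.1% of 487 nuclei held a UMI. It stood at 28.2 CPM (22 to 35) in CGE-type and 8.20 CPM in septal-type nuclei, and at 1.36 CPM in oligodendrocyte-like nuclei. Outside neurons, the 67 endothelial-like nuclei of that library held 37.3 CPM of Lhx6, in a unit where 3 UMIs make 18.6 CPM. The control held 10 MGE-type nuclei, at 49.0 CPM. Of the 16 other factors of GABAergic lineages, 9 reached 20 CPM in the MGE-type nuclei, among them Npas3, Sox6 and Maf. Genes with a similar pattern over the 18 neuronal clusters, among 7051 genes reaching 50 CPM in 1 of them, were Npy (r = 0.95), Maf (0.95), Col19a1 (0.91) and Gm31218 (0.91), while Lhx8 had an r of 0.23.

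The septal-type GABAergic-like cluster, named from Prdm16, Trpc4 and other markers, had the highest Zic1 level of the neuronal units with at least 30 nuclei of 1 library. It held 1110 nuclei of the Syn-cre library and 68 of the control. Zic1, a zinc-finger factor known for septal and midline lineages, stood there at 154 CPM (146 to 162) and 130.4 CPM (106 to 159) in the Syn-cre library and the control, Zic4 at 83.4 and 92.7 CPM, Zic2 at 40.7 and 25.5 CPM and Zic5 at 12.8 and 10.8 CPM. In each excitatory unit of the Syn-cre library described above Zic1 was below the 13.9 CPM of oligodendrocyte-like nuclei. Of the 1178 nuclei of the cluster, 633 held a Zic1 UMI, and 55.0% of these also held Zic4, against 20.4% of those without Zic1, with depth not matched. Zfhx3, a large zinc-finger homeobox gene, stood at 534 and 481 CPM in the cluster, against 20.5 and 22.5 CPM in oligodendrocyte-like nuclei. The genes most like Zic1 over the neuronal clusters were Zic4, Zfp521 (r = 0.86), Gm29478 (0.79), Nrbp1 (0.79) and Prkcd (0.78).

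The cluster was not 1 population. Clustered again without the 37 genes, it split into 17 sub-clusters, called a to q, and the sub-clusters differed in many genes of the list. Levels in sub-clusters pool both libraries. Zic1 ranged from 11.4 CPM in sub-cluster h to 369 CPM in sub-cluster l, and stood at 52.2 CPM or less in a, g, h, k and p. Sub-cluster d (93 and 3 nuclei of the Syn-cre library and the control) held 355 CPM of Zic1 (316 to 397), 240.0 CPM of Zic4 (208 to 275) and 225 CPM of Dlx1 (194 to 259). The sub-clusters described next are those whose leading genes are known from other kinds of forebrain neuron, chosen after their values were seen.

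Sub-cluster g (70 and 2 nuclei) had Chat and Slc5a7, genes of acetylcholine synthesis and choline uptake, among its leading genes, as did sub-cluster m. Lhx8, which specifies cholinergic neurons of the basal forebrain, stood there at 68.2 CPM (51 to 89), Lhx6 at 55.1 CPM (39.7 to 74.5), Nkx2-1 at 23.6 CPM (14 to 37) and Meis1 at 114 CPM (91 to 141), while Zic1 was at 26.2 CPM. Of the nuclei given a sex, 42 were female and 6 male. Sub-cluster p (14 nuclei, all of the Syn-cre library), led by Rorb, Rmst and Nmu, held Lhx8 at 56.3 CPM, from 6 UMIs.

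Sub-cluster a, the largest of the 17 (245 and 19 nuclei), was led by Oxt, Adarb2, Avp and Sim1. Oxt, Avp and Sim1 are known from the hypothalamus, while Adarb2 was a marker of CGE-type interneurons here. Sub-cluster a held Lhx8 at 22.3 CPM (16 to 30), Isl1 at 53.1 CPM and Ebf1 at 95.1 CPM (82 to 110). The 188 Ebf1 UMIs lay in 21 of its 264 nuclei. Sub-cluster h (48 and 7 nuclei), led by Slc17a8, a vesicular glutamate transporter gene, and with Lgr5 among its top 10 genes, had 1264 CPM of Meis2 (1161 to 1373) and 534 CPM of Pbx3, with 11.4 CPM of Zic1 from 5 UMIs.

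Sub-clusters j and n held Slc17a6, the vesicular glutamate transporter of diencephalic neurons, among their leading genes. Sub-cluster j (38 and 0 nuclei) had Isl1 at 229.6 CPM (182 to 286) with Zic1 at 172 CPM. Sub-cluster n (24 and 1 nuclei), was led by Synpo2, Rorb and Lef1. Tcf7l2, a Wnt effector known in thalamic neurons, stood there at 670.0 CPM (583 to 766), with UMIs in all 25 nuclei, Lhx9 at 131 CPM (94 to 177), Foxp2 at 829 CPM (732 to 935) and Zfhx3 at 1243 CPM (1124 to 1372). Across the other 16 sub-clusters Tcf7l2 reached at most 75.4 CPM, in sub-cluster a.

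Sub-clusters k and o carried Lhx1 and Lhx5. Sub-cluster k (20 and 17 nuclei), led by Lef1 and Otx2os1 and with Sox14 among its top 10 genes, had Otx2 at 79.6 CPM (53 to 114) and Ebf1 at 247 CPM (199 to 304), with Lhx1 at 35.7 CPM (19 to 61) and Lhx5 at 24.7 CPM. The Otx2 UMIs lay in 11 of its 37 nuclei and those of Ebf1 in 10. Sub-cluster o (14 and 5 nuclei), led by Npr1 and Nxph4, had Lhx5 at 65.8 CPM (30 to 125), Lhx1 at 51.2 CPM and Emx2 at 102 CPM (56 to 172). Sub-cluster k made up 17 of the 68 septal-type nuclei of the control and 20 of the 1110 of the other library, which bears on the comparison of libraries below. Of the 17 other diencephalic factors 1, Rora, reached 20 CPM in septal-type nuclei of the Syn-cre library, and Rora and Lef1 did so in those of the control.

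**Figure D2:**
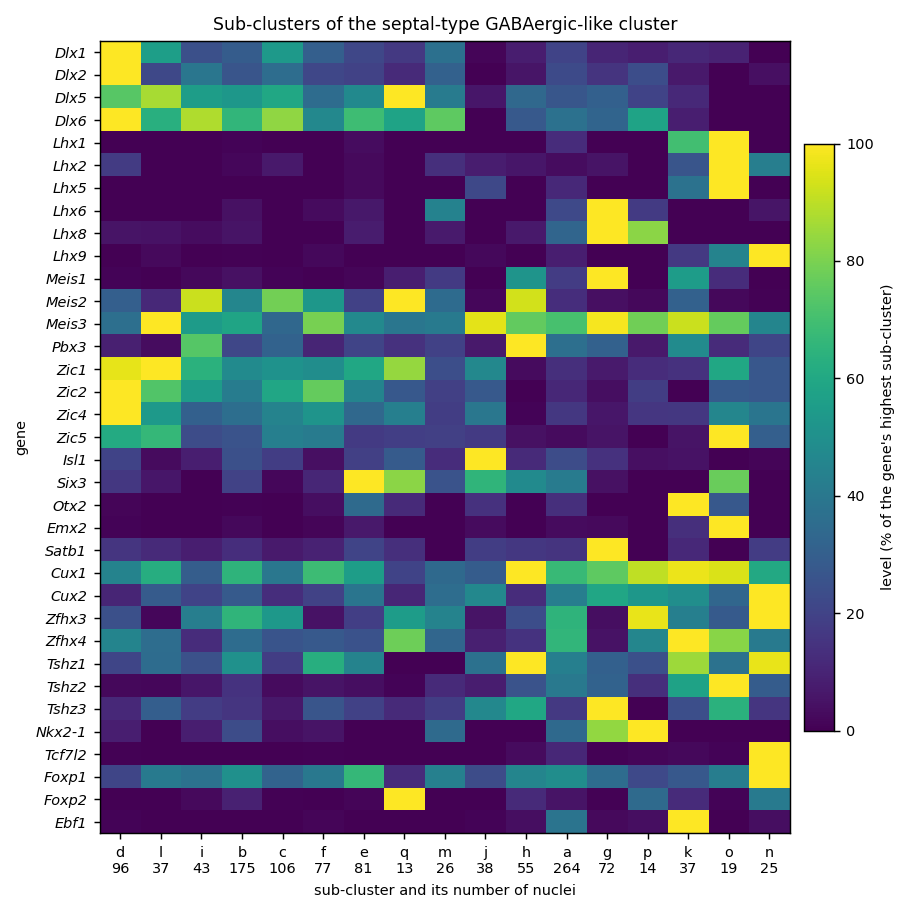
Level of each gene in the 17 sub-clusters of the septal-type GABAergic-like cluster as a percentage of the gene's highest sub-cluster, for genes with at least 10 UMIs in 1 sub-cluster. Letters are sub-clusters, with their number of nuclei below. Dlx1, Zic1 and Zic2 are bright on the left, Lhx6 and Lhx8 in g, Otx2 and Ebf1 in k, and Tcf7l2 and Lhx9 in n.

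Striatal medium spiny-like nuclei (222 and 15 in the Syn-cre library and the control), the projection neurons of the striatum, were named from Rgs9, Rarb, Gnal and other markers. Meis2 stood there at 1522 CPM (1464 to 1582), Foxp2 at 811 CPM (769 to 855), Foxp1 at 647 CPM (609 to 686) and Pbx3 at 535 CPM in the Syn-cre library. The 15 control nuclei held 1066 CPM of Foxp2 and 688 CPM of Foxp1. Six3, a factor of striatal neurons of the indirect pathway, stood at 56.2 CPM (46 to 69), above its 15.7 CPM in the septal-type cluster and 2.96 CPM in oligodendrocyte-like nuclei. Isl1, known in the direct pathway, stood at 48.0 CPM (38.2 to 59.6). Of the 237 nuclei, 53 held Isl1 and 74 Six3. Of those with Isl1, 22.6% also held Six3, against 33.7% of those without. Of the 12 other striatal factors, 9 reached 20 CPM in the Syn-cre library, led by Rarb, Bcl11b, Mef2c and Foxo1.

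Cluster 26, unnamed, held 65 nuclei of the Syn-cre library and 52 of the control. Its leading genes were Gpr149, Syt6 and Drd3, a dopamine receptor gene known from the islands of Calleja of the ventral striatum, and it held Gad2 at 309 and 458 CPM. Isl1 stood there at 346 CPM (272 to 434) and 323 CPM (251 to 408), with UMIs in 67.7% and 65.4% of nuclei. The next highest level among units of at least 30 nuclei of 1 library was the 48.0 CPM of striatal medium spiny-like nuclei. Foxp2 stood at 854 CPM (735 to 986) and 977 CPM (849 to 1119), and Cux1 at 249 and 271 CPM. Pbx3 differed more, with 254 and 594 CPM. Six3 had no UMI in the Syn-cre nuclei, and Zic1 stood at 9.23 and 9.35 CPM. The Isl1 and Foxp2 intervals of the 2 libraries overlapped.

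Both libraries held nuclei with UMIs of Xist and nuclei with UMIs of Y-linked genes, and a nucleus with UMIs of 1 kind and none of the other was counted as female or male. Among neurons 42.1% of 6216 such nuclei were female in the Syn-cre library and 54.1% of 839 in the control. Striatal medium spiny-like nuclei and cluster 26 had higher female shares. In the Syn-cre library 172 of 180 striatal medium spiny-like nuclei were female (95.6%, Clopper-Pearson interval 91.4 to 98.1), and 50 of 51 in cluster 26 (98.0%, 89.6 to 100). MGE-type interneuron-like nuclei were 40.5% female (35.4 to 45.8), CGE-type 31.7% (26.2 to 37.5) and Cajal-Retzius-like 67.3% (52.5 to 80.1). CA1-like nuclei were 30.7% female (27.1 to 34.5) and DG granule-like nuclei 40.4% (38.0 to 42.9). In the control, 31 of 42 nuclei of cluster 26 were female (73.8%, 58.0 to 86.1) and 9 of 12 striatal medium spiny-like nuclei. Within the septal-type cluster of the Syn-cre library 52.8% were female. Each library therefore held nuclei of both sexes, and the labels do not assign nuclei to animals.

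**Figure D3:**
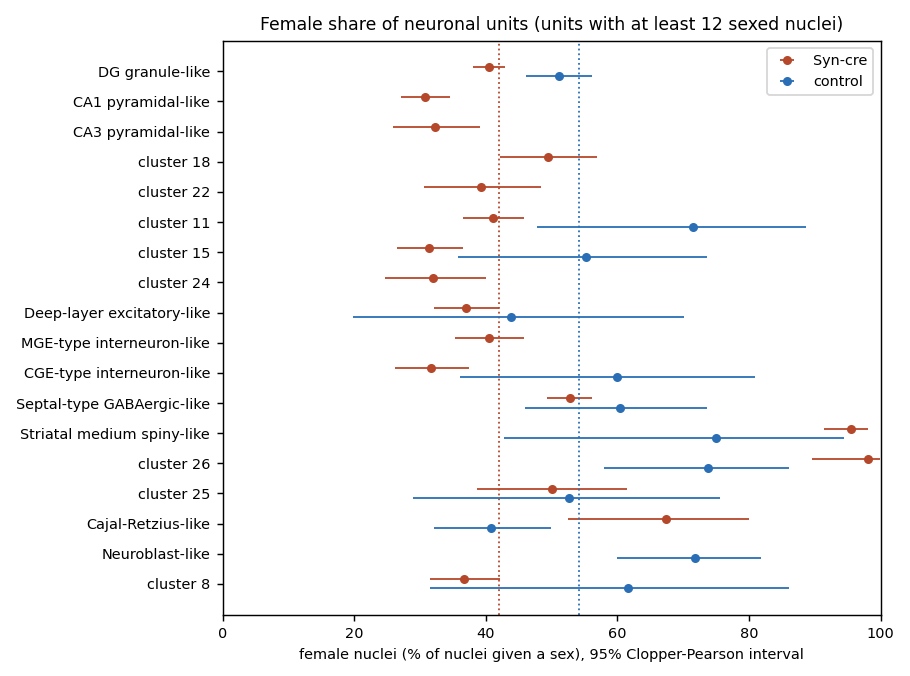
Share of female nuclei (horizontal axis, % of nuclei given a sex, with 95% Clopper-Pearson intervals) in each neuronal unit with at least 12 nuclei given a sex, in the Syn-cre library and the control. Dotted lines mark the share over all neurons of a library, 42.1% and 54.1%. Striatal medium spiny-like nuclei and cluster 26 of the Syn-cre library lie at 95.6% and 98.0%.

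The levels of the genes were also compared between female and male neurons of 1 library. All neurons of a library are a mixture of units with the unlike female shares given above. In these pooled levels a sex difference within a kind of neuron cannot be told apart from a difference in the mixture of units. Over all neurons of the Syn-cre library, 34 genes had at least 50 UMIs, and 12 of them were at least 1.5-fold higher in female nuclei and 0 lower, beside 3.24% and 2.45% of all genes with as many UMIs. Foxp2 stood at 96.3 CPM in female and 34.3 CPM in male neurons, a log2 ratio of 1.49 (1.38 to 1.60). Lhx8 stood at 3.70 and 0.707 CPM (2.36, 1.66 to 3.18), Tcf7l2 at 11.1 and 2.86 CPM (1.94, 1.58 to 2.33) and Isl1 at 15 and 7.53 CPM (0.99, 0.74 to 1.25). In the control 8 of 25 genes were higher in female neurons and 2 lower, beside 2.94% of all genes in each direction. Isl1 stood at 15.1 and 6.99 CPM there and Foxp2 at 136 and 83.5 CPM, while Lhx1 was lower with 15.8 against 31.6 CPM.

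Within DG granule-like nuclei of the Syn-cre library 1 of 17 genes was higher in female nuclei and 1 lower, beside 1.69% and 2.97% of all genes. These were Foxp2, with 6.85 against 3.60 CPM, and Pbx3, with 5.14 against 9.15 CPM. Within the septal-type cluster 6 of 28 genes were higher in female nuclei and 5 lower, beside 4.31% and 3.51% of all genes. The 6 were Lhx8, Tcf7l2, Ebf1, Lhx6, Meis1 and Tshz2, and the 5 were Zic1, Zic2, Zic5, Six3 and Dlx5, with an interval for Zic5 that held 0 (-1.27 to 0.014). Zic1 stood at 120 CPM in female and 203 CPM in male nuclei (-0.76, -0.94 to -0.59), and Lhx8 at 19.1 and 3.33 CPM (2.46, 1.59 to 3.59). In septal-type nuclei of the control 2 of 11 genes were higher in female nuclei and 3 lower, beside 8.95% and 11.7% of all genes. Zic1 (0.62, -0.17 to 1.49) and Zic4 (0.70, -0.15 to 1.65) were the higher ones there, against the direction of Zic1 in the Syn-cre library, and Tshz2, Zfhx4 and Ebf1 were lower. In DG granule-like nuclei of the control 0 of 8 were higher and 1, Zfhx3, was lower, beside 3.01% and 4.3%. Over both libraries, the female share of the sub-clusters of the septal-type cluster ran from 20.6% in i to 87.5% in g. In this cluster too, a sex difference within a kind of neuron cannot be told apart from a difference in the mixture of sub-clusters. Sex and animal cannot be told apart in any of these comparisons, because the labels do not assign nuclei to animals.

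Cajal-Retzius-like nuclei (68 and 164 in the Syn-cre library and the control), which in these data include Reln, Ndnf and Trp73 among their leading genes, had the highest levels of Lhx1 and Lhx5 among units of at least 30 nuclei of 1 library. Lhx1 stood at 296 CPM (223 to 386) and 274 CPM (232 to 322), Lhx5 at 91.6 CPM (53 to 147) and 107 CPM (82 to 139), and Emx2 at 156 CPM (105 to 224) and 176 CPM (142 to 215). The intervals of the libraries overlapped for all 3 genes. Oligodendrocyte-like nuclei held under 1 CPM of Lhx1 and Lhx5 in both libraries. Zic1 stood at 48.5 and 55.6 CPM.

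Cluster 25 (111 and 24 nuclei), unnamed, shared part of this code and was led by Ebf2, Ebf3 and Postn, with Chrm2 and Calb2 among its top 10 genes. Lhx1 stood there at 81.7 CPM (62 to 106) and 61.3 CPM and Lhx5 at 19 and 22.3 CPM. Unlike Cajal-Retzius-like nuclei it held 1116 CPM of Zfhx3 (1038 to 1198) and 1326 CPM, against 16.2 and 5.56 CPM, 283 CPM of Ebf1 (244 to 326) and 423 CPM, against 16.2 and 11.1 CPM, and 222 and 206 CPM of Cux2, against 10.8 and 22.2 CPM. Emx2 was at 1.46 CPM in the Syn-cre nuclei of cluster 25. It carried Slc17a6 at 241 and 284 CPM and Gad2 at 17.5 and 5.57 CPM. Zic1 was at 72.9 and 78.0 CPM.

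Neuroblast-like nuclei, the young neurons named from Dcx, Igfbpl1, Sox11 and other markers, numbered 89 in the control and 6 in the Syn-cre library, so the values here are those of the control. Over all 89, Meis2 stood at 1896 CPM (1737 to 2065), Pbx3 at 1651 CPM (1503 to 1809), Tshz1 at 180 CPM (134 to 238) and Dlx1 at 151 CPM (109 to 205), yet Meis2 was found in 38 nuclei and Pbx3 in 31. The class held nuclei of 2 gene sets. UMIs of Dlx1, Dlx2, Sp8 or Sp9, factors of GABAergic neuroblasts such as those of the subventricular zone, were found in 30 nuclei (33.7%), UMIs of Neurod1, Neurod2, Eomes or Tbr1, factors of young excitatory neurons such as those of the dentate gyrus, in 31 (34.8%), and UMIs of both sets in 1 nucleus (1.12%, 0.028 to 6.10). These sets were chosen after the levels had been seen, so Dlx1 and Dlx2 in the first set are a description.

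Other genes of the list separated the 29 nuclei with the first set alone (80478 UMIs) from the 30 with the second alone (101457 UMIs). Meis2 was found in 29 of the 29, at 5331 CPM (4838 to 5860), and in 0 of the 30. A count of 0 there has a limit of 29.6 CPM, and the Meis2 level was 180-fold that limit. Folds over such a limit leave out the counting error of the level, so they are not lower bounds. Foxp2 stood at 957 CPM (755 to 1196) against 0 UMIs, 32.4-fold the limit. Meis1 stood at 335 CPM (221 to 488) against 0 UMIs, 11.3-fold the limit. Pbx3 stood at 4573 CPM (4117 to 5065) against 39.4 CPM (11 to 101), from 368 and 4 UMIs. Tshz1 had 38 UMIs in the first set and 1 in the second.

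The pallial genes went the other way. Emx2 stood at 118 CPM (61 to 207) in the second set against 0 UMIs in the first, whose limit is 37.3 CPM. Lhx2 stood at 108 CPM (54 to 194) against 0 UMIs. These levels were 3.17-fold and 2.91-fold that limit. The Poisson interval for 0 UMIs in the first set reached 45.8 CPM, below both intervals. Emx1 had 6 UMIs in the second set and 0 in the first. Foxp1 and Satb1 did not separate the sets beyond their intervals, with 112 against 177 CPM and 49.7 against 69.0 CPM. Outside the list, Prox1, the granule cell factor, stood at 87.0 CPM in the first set and 532 CPM in the second, and Gad2 at 634 CPM against 0 UMIs. Dcx, a gene of migrating neuroblasts, was at 410 CPM (282 to 576) and 256 CPM (167 to 375), and its intervals overlapped. Of the nuclei given a sex, 24 were female and 3 male in the first set, and 12 and 8 in the second. The 29 nuclei with neither set held 930 CPM of Meis2 in 8 nuclei and 567 CPM of Prox1. Of the 6 neuroblast-like nuclei of the Syn-cre library 3 held the first set, 0 the second and 5 Meis2.

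**Figure D4:**
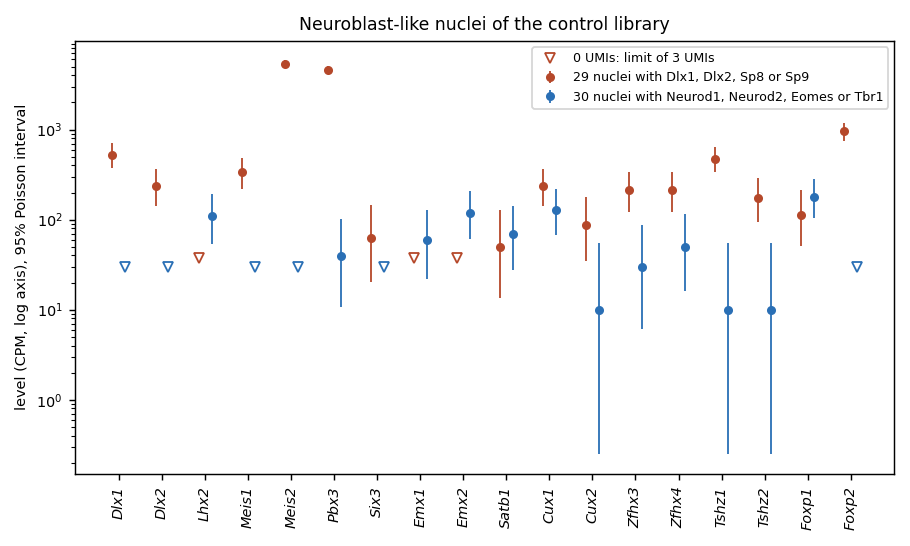
Level (CPM, log axis, with 95% Poisson intervals) in neuroblast-like nuclei of the control that held UMIs of Dlx1, Dlx2, Sp8 or Sp9 (29 nuclei) or of Neurod1, Neurod2, Eomes or Tbr1 (30 nuclei), for genes of the list with at least 5 UMIs in 1 set. Open triangles mark 0 UMIs, drawn at the limit of 3 UMIs. Meis2, Pbx3 and Foxp2 are high in the first set, and Lhx2, Emx1 and Emx2 have UMIs in the second set alone.

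Several factors were higher outside neurons than in any neuronal unit. Zic1 stood at 342 CPM (237 to 478) in pericyte or smooth muscle-like nuclei of the Syn-cre library and 659.6 CPM (502 to 851) in those of the control, and at 276 CPM and 481 CPM in fibroblast-like nuclei, known to cover the brain surface. The intervals of the libraries did not overlap in either unit. Zic2 and Zic4 were highest among units of at least 30 nuclei of 1 library in fibroblast-like nuclei of the control, with 372 CPM (319 to 430) and 319 CPM (270 to 374), against 161 CPM (107 to 233) and 218 CPM (155 to 300) in the Syn-cre library. Ebf1 stood at 1066 CPM (873 to 1290) and 2918 CPM (2575 to 3294) in pericyte or smooth muscle-like nuclei. For all of these the control was higher, and Zic4 was the one whose intervals overlapped. Cluster 29 (23 and 54 nuclei), unnamed and nearest to fibroblasts by markers, held 2949 CPM of Foxp1 (2731 to 3179), 1976 CPM of Foxp2 (1798 to 2166) and 556 CPM of Zfhx4 in the control.

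Among glia, Lhx2 stood at 79.3 CPM (66 to 95) and 74.4 CPM (64 to 86) in astrocyte-like nuclei, Emx2 at 136.0 and 152 CPM, and Otx1 at 34.2 and 47.4 CPM. These pallial genes were thus higher in astrocyte-like than in DG granule-like nuclei, where Emx2 stood at 13.3 and 9.62 CPM. Cux1 stood at 285 CPM (241 to 335) and 401.5 CPM (376 to 428) in microglia-like nuclei and Zfhx3 at 1443 CPM (1342 to 1549) and 1947 CPM (1890 to 2005). Tcf7l2, which acts in oligodendrocyte differentiation, reached 1205 CPM (1098 to 1320) in newly formed oligodendrocyte-like nuclei of the control, against 82.2 CPM in mature ones. Meis1 stood at 99.4 and 104 CPM in oligodendrocyte-like nuclei, within counting error of its 108 CPM in neuroblast-like nuclei. Otx2 stood at 313 CPM (241 to 400) and 412 CPM (335 to 503) in choroid plexus-like nuclei. The 28 pineal-like nuclei held 438 and 370 CPM, and the 50 nuclei of cluster 33, unnamed, 15 and 82.7 CPM. Cluster 33, led by Sfta3-ps, held Nkx2-1 at 267 CPM (196 to 356) and Six3 at 176 CPM (120 to 250) over both libraries, while Nkx2-1 reached at most 6.72 CPM in any neuronal unit of at least 30 nuclei of 1 library.

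Between the libraries, levels could be compared in 6 classes with at least 100 nuclei in each. A gene was called where it had at least 50 UMIs over both libraries and differed by at least 1.5-fold. In DG granule-like nuclei 9 of 20 genes of the list were called, 8 higher (9.11% of all genes tested) and 1 lower (5.69%) in the Syn-cre library, beside 14.8% of all genes in either direction. In the GABAergic-like class (MGE-type, CGE-type and septal-type together) 17 of 33 were called, beside 25.4%, with 6 higher (13.6% of all genes) and 11 lower (11.7%). In astrocyte-like nuclei 4 of 21 were called, beside 20.4%, with 3 higher (14.2%) and 1 lower (6.2%). In oligodendrocyte-like nuclei 9 of 19 were called, beside 32.0%, with 8 higher (24.8%) and 1 lower (7.25%). In OPC-like nuclei (oligodendrocyte precursor cells) 1 of 17 was called, beside 18.5%, and it was higher (11.5% higher and 6.97% lower over all genes). In microglia-like nuclei 4 of 11 were called, beside 27.5%, with 3 higher (16.3%) and 1 lower (11.2%). The astrocyte-like and OPC-like shares were at or under the background.

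**Figure D5:**
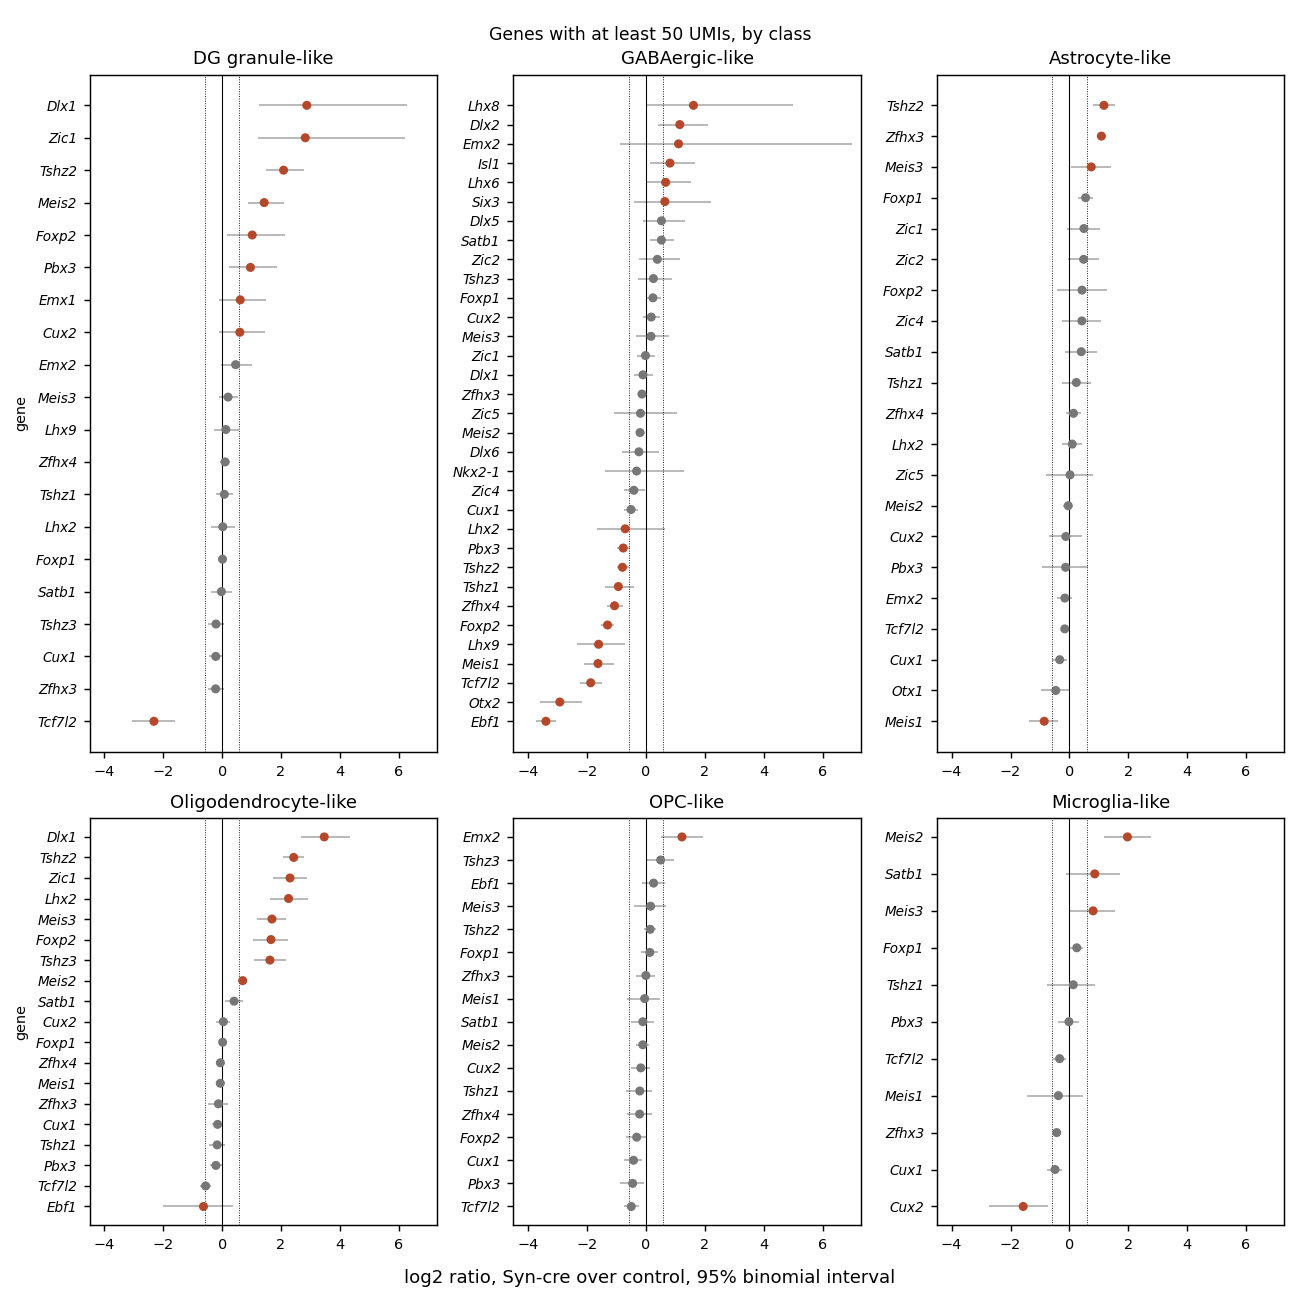
Log2 ratio of the level in the Syn-cre library over the control (horizontal axis, with 95% binomial intervals for counting error) for each gene of the list with at least 50 UMIs, in 6 classes, 1 panel each. Dotted lines mark 1.5-fold, and genes beyond them are red, 9 in DG granule-like and 17 in GABAergic-like nuclei. Dlx1, Zic1 and Tshz2 lead the granule-like and oligodendrocyte-like panels, and Ebf1 is lowest in the GABAergic-like one.

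In DG granule-like nuclei the 8 genes that were higher stood at 23.9 CPM or less in both libraries. Tshz2 stood at 23.9 against 5.53 CPM, a log2 ratio of 2.08 (1.5 to 2.79). Dlx1 stood at 4.36 against 0.481 CPM (2.87, 1.26 to 6.26, from 58 and 2 UMIs), Zic1 at 4.21 against 0.481 CPM (2.82, 1.21 to 6.21) and Meis2 at 17.1 against 6.26 CPM (1.42, 0.86 to 2.09). Foxp2 and Pbx3 had ratios of 1.02 and 0.96, and Emx1 and Cux2 ratios whose intervals held 0. In oligodendrocyte-like nuclei of the same 2 libraries Tshz2 stood at 34.8 against 6.46 CPM, Dlx1 at 11.4 against 1.01, Zic1 at 13.9 against 2.81, Meis2 at 99.4 against 61.4 and Foxp2 at 10.2 against 3.26 CPM. The levels in granule-like nuclei lay below these glial levels in each library for all 5 genes. Tcf7l2 was lower in granule-like nuclei, with 2.11 against 10.6 CPM (-2.32, -3.07 to -1.61), and stood at 55.5 and 82.2 CPM in oligodendrocyte-like nuclei. With nuclei thinned to 1000 UMIs 1 of 8 genes was called, beside 15.4% of all genes in that setting, and the Pbx3 ratio was -0.32. Among genes with at least 200 UMIs 2 of 13 were called, beside 7.67%. Free RNA was also subtracted, at 32.9% of the library level in the Syn-cre library and 13.3% in the control. The levels of Tshz2, Dlx1, Zic1, Meis2 and Tcf7l2 were then subtracted in full in both libraries. Their ratios had no value in that setting. The part of RNA from other cells in these differences was not tested.

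The other genes tested in granule-like nuclei did not pass 1.5-fold. Foxp1 stood at 163 and 162 CPM, Zfhx4 at 88.1 and 82.3 CPM, Cux1 at 44.9 and 52.2 CPM, Lhx2 at 17.4 and 17.1 CPM and Lhx9 at 16.3 and 14.9 CPM in the Syn-cre library and the control. Of these, Lhx2 and Lhx9 lay above their oligodendrocyte-like levels, which for Lhx2 were 10.5 and 2.19 CPM, and Foxp1 and Cux1 lay below theirs. Over the 20 genes the median log2 ratio was 0.16, beside 0.046 over all genes tested.

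In the GABAergic-like class (1962 and 105 nuclei) 11 genes were lower in the Syn-cre library and 6 higher. Ebf1 stood at 11 against 115.5 CPM (-3.39, -3.73 to -3.06), Otx2 at 3.18 against 23.8 CPM (-2.92, -3.61 to -2.17) and Tcf7l2 at 20.1 against 73.3 CPM (-1.87, -2.22 to -1.5). Meis1 (-1.63), Lhx9 (-1.61), Foxp2 (-1.30), Zfhx4 (-1.06), Tshz1 (-0.93), Tshz2 (-0.79) and Pbx3 (-0.77) were also lower, with intervals that left out 0. Lhx8 (1.62, 0.05 to 4.99, from 119 and 2 UMIs), Dlx2 (1.15, 0.42 to 2.12) and Isl1 (0.82, 0.15 to 1.68) were higher. Without sub-cluster k, a setting chosen after seeing the data, 13 of 32 were called, beside 25.6% of all genes in that setting, and the Tshz2 ratio was 0.14. With libraries centred before clustering the class held 41 control nuclei, and the ratios of Ebf1, Otx2, Tcf7l2, Foxp2, Lhx9, Zfhx4 and Tshz2 turned positive. With nuclei thinned to 1000 UMIs Dlx2 stood at -0.50, Otx2 at 0.025 and Tcf7l2 at 0.26. The cause of these turns was not tested, and none of the ratios is read as a change within 1 kind of neuron.

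In oligodendrocyte-like nuclei Dlx1 (3.47), Tshz2 (2.43), Zic1 (2.30), Lhx2 (2.25), Meis3 (1.69), Foxp2 (1.65), Tshz3 (1.62) and Meis2 (0.70) were higher in the Syn-cre library. With free RNA subtracted the Syn-cre level of Meis2 was subtracted in full and set to the limit of 3 UMIs. The Meis2 ratio of -6.09 in that setting reflects this limit and is not a measured reversal. Neurons made up 71.4% of the nuclei of that library and 10.2% of the control, and the part of neuronal RNA in these differences was not tested. Foxp1, Zfhx4 and Meis1 were within 1.5-fold. In astrocyte-like nuclei Zfhx3 stood at 476 against 224 CPM (1.08, 0.92 to 1.25) and Tshz2 at 101 against 44.9 CPM (1.17). Meis3 was at 0.74, and Meis1 was lower with 30.9 against 56.4 CPM (-0.86, -1.37 to -0.38). The Tshz2 ratio was -3.93 with free RNA subtracted, again with the Syn-cre level subtracted in full and set to that limit. Emx2 in OPC-like nuclei stood at 32.4 against 13.9 CPM (1.23, 0.50 to 1.93), and its ratio was -0.16 in female nuclei alone. In microglia-like nuclei Meis2 was higher (1.97, 1.16 to 2.77) and Cux2 lower, with 19 against 59.1 CPM (-1.57, -2.73 to -0.71).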

How the data were processed

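Both libraries were deposited by the authors as raw UMI counts of genes in barcodes, written by Cell Ranger (9.0.1 per the file headers). Per the submitters' processing notes, bcl2fastq 5.0.1, Seurat 4.1.0 and the GRCm39 build were also used. The sources used here do not state whether intronic reads were counted.

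From these counts, nuclei with at least 500 genes, 800 UMIs and under 5% mitochondrial UMIs were kept, and doublets were marked with Scrublet. In the control, where its automatic threshold marked 0.016%, the top scores were taken at the expected rate. Counts were scaled to 10000 and clustered (scanpy 1.11.5, 2000 variable genes without the 37, sex-linked and mitochondrial genes, 30 components, 15 neighbours, Leiden resolution 1). Clusters were named from 231 markers of 28 classes. A name needed a lead of 0.5 in mean log2 fold over the next class and at least 3 and 50% of the markers among 150 leading genes, and these rules date from after a first look at clusters. An unnamed cluster was neuronal at a median of 300 CPM of Snap25, Syt1, Rbfox3 and Grin1.

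UMIs were summed per library and unit. Intervals (95%) are exact Poisson for levels, Clopper-Pearson for shares and conditional binomial for ratios, with 0.5 UMI added. A count of 0 allows 3 UMIs. No test was made with 1 library per group. Genes were named by a rule: those with 20 CPM and 30 UMIs in a unit of 30 nuclei in full, and between libraries those past 1.5-fold with an interval leaving out 0. The ratio step was tested on simulated data. The genes and lists were chosen with earlier results of these data known. Depth was 90594923 UMIs over 16693 barcodes in the Syn-cre library and 41781481 over 12621 in the control. A few genes that these rules would name are not reported here.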

Additional observations from a re-analysis of the deposited data

Results flagged for a closer look

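The log2 ratio of the Syn-cre library over the control had opposite signs in different classes for 3 genes of the list, each with intervals that left out 0. Whether the classes differ was not tested, since there is 1 library in each group, and for each gene the opposite signs were lost in at least 1 other setting. For Foxp2 the ratio was 1.02 in DG granule-like nuclei, 1.65 in oligodendrocyte-like nuclei and -1.30 in the GABAergic-like class, where it was 3.54 with libraries centred before clustering. For Pbx3 it was 0.96 in DG granule-like nuclei, where it was -0.32 with nuclei thinned to 1000 UMIs, and -0.77 in the GABAergic-like class. For Tshz2 it was 2.08 in DG granule-like, 1.17 in astrocyte-like and 2.43 in oligodendrocyte-like nuclei and -0.79 in the GABAergic-like class. The Tshz2 ratio in the GABAergic-like class was 0.99 at clustering resolution 1.5, 1.86 with the 37 genes kept among the clustering genes, 1.80 under the stricter nuclei filter, 0.67 with libraries centred, 0.040 in female nuclei and 0.14 without sub-cluster k. With free RNA subtracted it was -3.93 in astrocyte-like nuclei, where the Syn-cre level was subtracted in full and set to the 3-UMI limit.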

How the results depend on the processing

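No paired analysis was possible because each group has 1 library. Counts of genes past 1.5-fold moved beyond 1.5 times under these settings, and the cause was not tested. Each count is given of the genes of the list tested, with the percentage of all genes called in that setting in parentheses. With nuclei thinned to 1000 UMIs it was 1 of 8 in DG granule-like (15.4%), 8 of 19 in GABAergic-like (35.1%), 1 of 6 in microglia-like (26.7%) and 2 of 14 in OPC-like nuclei (16.7%). With genes of at least 200 UMIs it was 2 of 13 in DG granule-like (7.67%), 11 of 25 in GABAergic-like (16.5%), 2 of 9 in astrocyte-like (10.9%), 2 of 12 in oligodendrocyte-like (23.8%), 0 of 5 in microglia-like (17.1%) and 0 of 13 in OPC-like nuclei (8.15%). With genes of at least 1 UMI in each library it was 23 of 36 in oligodendrocyte-like (46.9%), 20 of 32 in DG granule-like (31.8%), 15 of 25 in microglia-like (46.6%), 11 of 31 in astrocyte-like (40.5%) and 7 of 29 in OPC-like nuclei (37%). In male nuclei alone it was 4 of 14 in DG granule-like (15.5%), 1 of 5 in microglia-like (28.6%), 2 of 12 in oligodendrocyte-like (26.3%) and 2 of 14 in OPC-like nuclei (16.5%). In female nuclei alone it was 3 of 13 in DG granule-like (15.7%), 11 of 27 in GABAergic-like (27.1%) and 1 of 6 in microglia-like nuclei (31.3%). With doublets kept it was 7 of 22 in astrocyte-like (26.8%), 10 of 15 in microglia-like (38.7%) and 3 of 17 in OPC-like nuclei (22.4%). With free RNA subtracted it was 7 of 19 in astrocyte-like (36.5%), 2 of 10 in microglia-like (36.2%) and 8 of 17 in OPC-like nuclei (53.3%). The GABAergic-like count was 8 of 25 at clustering resolution 1.5 (28.6%), 8 of 25 with the 37 genes kept among the clustering genes (27.9%) and 7 of 25 under the stricter nuclei filter (27.3%).

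Ratios turned sign mostly in the GABAergic-like class. At resolution 1.5 Lhx8 stood at -1.16, Lhx9 at 0.34, Isl1 at -0.35, Tshz2 at 0.99 and Ebf1 at 0.14. With the 37 genes kept they were -0.86, 0.65, -0.27, 1.86 and 0.19, and Otx2 0.87. Under the stricter filter they were -0.89, 0.53, -0.26, 1.80 and 0.77, and Otx2 0.84. With libraries centred Lhx9 stood at 1.91, Otx2 at 1.32, Zfhx4 at 0.99, Tshz2 at 0.67, Tcf7l2 at 0.26, Foxp2 at 3.54 and Ebf1 at 3.10. With thinned nuclei Dlx2 stood at -0.50, Otx2 at 0.025 and Tcf7l2 at 0.26 there, and Pbx3 at -0.32 in DG granule-like nuclei. In female nuclei Tshz2 stood at 0.040 there and Emx2 at -0.16 in OPC-like nuclei. With free RNA subtracted Tshz2 stood at -3.93 in astrocyte-like and Meis2 at -6.09 in oligodendrocyte-like nuclei. For both the Syn-cre level was subtracted in full and set to the 3-UMI limit, so the size of these ratios was not measured. Both are counted as turns of sign. Without sub-cluster k, a setting chosen after seeing the data, Tshz2 stood at 0.14. Of 35 ratios, 21 kept their sign in every setting that gave a value. With free RNA subtracted, a gene whose level was subtracted in full in both libraries gave no ratio. Of 378 values of the 33 levels recomputed, 277 stayed within the counting interval and 101 moved. Units left with 18 or fewer nuclei in a setting gave no level there. An unnamed cluster that no new cluster matched well enough gave none either. The overlap is the share of nuclei in common among all nuclei of the 2 clusters. It was 0.185 and 0.083 for cluster 8 under the looser and stricter filters and 0.26 for cluster 24 at resolution 0.5. Cluster 26 was kept at 0.34 at resolution 0.5 and 0.31 under the looser filter, in larger clusters of 343 and 370 nuclei. The depth of 105 control nuclei limits the GABAergic-like ratios.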
